A study of Oncorhynchus mykiss with 14 samples.

Results

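Rows of miR-216, miR-217 and miR-375, miRNAs best known from the pancreas, were followed in small RNA libraries from 3 fat depots of rainbow trout. They were all table entries whose name starts with ssa-miR-216, ssa-miR-217 or ssa-miR-375, on either arm, and numbered 6 of 899: 3 for miR-216, 3 for miR-375 and 0 for miR-217, which has no values here. The libraries came from mature adipocytes of visceral fat (VAT, 4 libraries, replicates 1, 3, 4 and 5), subcutaneous fat (SAT, 5 libraries) and intramuscular fat (IMAT, 5 libraries). The donors of all 3 depots were untreated adult Oncorhynchus mykiss on a commercial diet, held under the same conditions and fasted before sampling, with no genotype or strain given. Adipocytes were released from dissected fat with collagenase, and the labels do not say whether libraries of a depot came from separate fish, so p-values measure the spread between these libraries, which may be technical.

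In vertebrates the miR-216a, miR-217 and miR-216b hairpins lie together in 1 gene cluster that is expressed strongly in acinar cells, the enzyme-secreting cells of the exocrine pancreas. miR-375 marks the hormone-secreting islet cells, where it restrains insulin secretion in mice, and it is also made in other neuroendocrine cells and in gut epithelium. In trout the exocrine pancreas is not a compact organ but is spread through the fat around the pyloric caeca, so visceral fat and pancreas lie in contact.

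The 6 entries held 3 distinct patterns of counts. The entries ssa-miR-375-3p, ssa-miR-375-2-3p and ssa-miR-375-3-3p, numbered copies of the 3p arm, had the same count in 14 of 14 libraries and were read as 1 miRNA. The 5p and 3p entries of miR-216b had the same count in 13 of 14 libraries and differed only in VAT 4, with 3 and 5 reads. They were also read as 1 miRNA, by the 5p entry, and the arm is uncertain. miR-216a was present as its 5p arm only. All 6 entries are listed with a mature length of 22 nt, so no length term separates them. Whether the 3 miRNAs were captured equally well was not checked, so ratios between them are ratios of reads. All 6 passed the filter of a count above 0 in at least 4 libraries. Over the 14 libraries miR-216a had 9373 reads, miR-375 had 3657 and miR-216b had 585.

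Libraries held 4525742 to 11076843 summed counts in VAT, 2060776 to 4042846 in SAT and 759369 to 11843805 in IMAT, and entries with the same reads are counted more than once in these sums. The table holds miRNAs only, so the labelled cell type could not be checked against adipocyte genes. Muscle miRNAs (miR-1, miR-133, miR-206 and miR-499, 1 entry per set with the same reads) took 24.2 to 34.5% of the summed counts in IMAT, 1.43 to 4.96% in SAT and 0.0388 to 1.77% in VAT. Their 9 entries were read as 6. The sums count every copy, so all muscle entries together took more of the sums than these shares. Library shares in IMAT are therefore lowered for every other miRNA, and TMM scaling factors were 0.301 to 0.841 in IMAT against 1.09 to 1.93 in VAT and 1.12 to 1.69 in SAT. VAT 4 and IMAT 5 stood apart in what follows, with the highest miR-375 and the lowest miR-216a of their depots, and results that rest on them are given with and without them. Both were picked by these same values, so a p-value from a fit without them is a description and no separate support.

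miR-216a, whose hairpin belongs to the acinar cluster, was high in 3 of 4 VAT libraries and lower in the rest of the series. It had 2203 reads in VAT 1, 1633 in VAT 3, 103 in VAT 4 and 4830 in VAT 5, which on the deposited CPM scale (the count as a share of the summed counts of its library) were 413, 361, 15.4 and 436. In SAT its levels were 19.4, 10.7, 13.6, 16.0 and 25.5 CPM in replicates 1 to 5. VAT 4 thus lay inside the SAT range, while the other VAT libraries lay far above it. In IMAT its levels were 13.0, 12.2, 60.5, 44.8 and 3.12 CPM in replicates 1 to 5, from 34 to 155 reads, with IMAT 3 highest and IMAT 5 lowest of all 14 libraries. Counted with 1 entry per set of shared reads, miR-216a ranked 59 to 69 by reads in VAT 1, VAT 3 and VAT 5, where 284 to 348 such entries were above 0. Its rank was 168 of 384 in VAT 4, 134 to 161 in SAT and 79 to 176 in IMAT. IMAT lay closer to VAT with TMM scaling, at 29.7, 40.5, 116.3, 53.25 and 4.53 CPM in replicates 1 to 5. On that scale VAT 3 was at 187.2 CPM and SAT at 9.24 to 17.6 CPM.

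miR-216b, from the same cluster, was the scarcest of the 3. It had 174 reads in VAT 1, 248 in VAT 3, 3 in VAT 4 and 113 in VAT 5, or 32.6, 54.8, 0.45 and 10.2 CPM. SAT libraries held 2 to 9 reads, a level of 0.97 to 2.34 CPM. In IMAT the counts were 3, 4, 10, 0 and 6 in replicates 1 to 5, or 0.83, 0.9, 3.9, 0 and 0.51 CPM. VAT 4 was again low: its 95% Clopper-Pearson interval, 0.0928 to 1.31 CPM, overlapped that of every SAT library, and such intervals cover counting error only. The listing at 0 in IMAT 4, the shallowest library, allows a level of up to 3.95 CPM (3 counts). A level like that of the other IMAT libraries, 0.51 to 3.9 CPM, is thus not excluded there.

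miR-375, the islet-linked miRNA, had a different order of libraries. Its VAT counts were 122, 205, 1258 and 478 in replicates 1, 3, 4 and 5, or 22.9, 45.3, 188.7 and 43.2 CPM. VAT 4, the low library for both miR-216 miRNAs, was the highest of all 14 for miR-375. In SAT the levels were 62.1, 26.2, 37.1, 46.0 and 56.7 CPM, so that the other VAT libraries lay within or just below the SAT range. In IMAT they were 10.5, 8.13, 11.7, 18.4 and 63.8 CPM, and IMAT 5 stood above the other libraries of its depot.

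**Figure D1:**
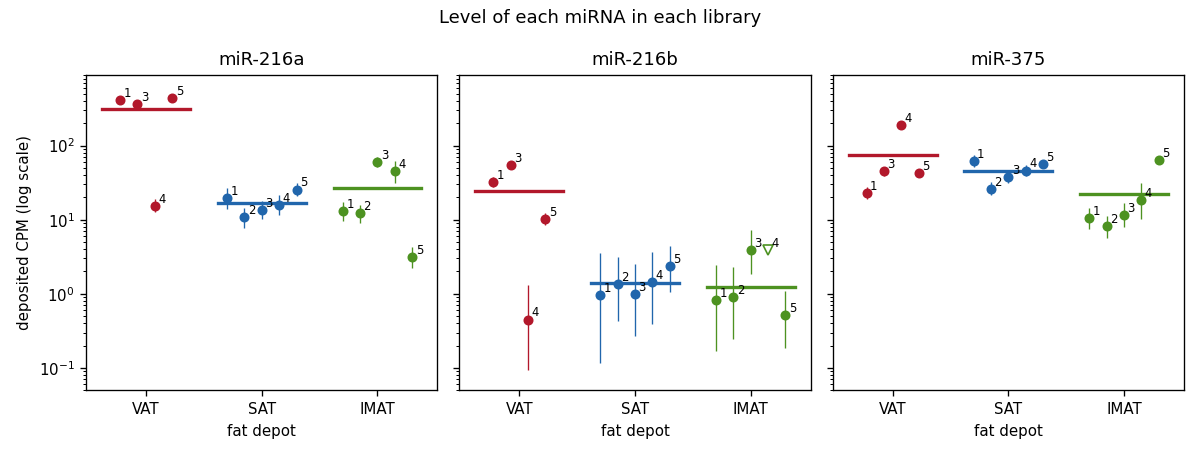
Deposited CPM (log scale) of miR-216a, miR-216b and miR-375 in each library, by depot. Points carry the replicate number and a 95% Clopper-Pearson interval, lines are depot means, and the open triangle is the limit of 3.95 CPM for the count of 0 in IMAT 4; VAT 4 sits at 15.4 CPM for miR-216a and at 188.7 CPM for miR-375.

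The ratio of 2 miRNAs within a library does not depend on how libraries are scaled. miR-216a had 18.1 reads per miR-375 read in VAT 1, 7.97 in VAT 3 and 10.1 in VAT 5, but 0.0819 in VAT 4. The same ratio was 0.312 to 0.449 in the 5 SAT libraries. In IMAT it was 1.24, 1.5, 5.17 and 2.43 in replicates 1 to 4 and 0.0490 in IMAT 5. miR-216a outnumbered miR-375 in 3 of 4 VAT and 4 of 5 IMAT libraries and in 0 of 5 SAT libraries. Between the cluster members, reads of miR-216a per read of miR-216b were 12.7, 6.58, 34.3 and 42.7 in VAT 1, 3, 4 and 5, 8 to 20 in SAT, and 6.17 to 15.7 in the 4 IMAT libraries with a miR-216b read. VAT 5 had the highest deposited CPM of miR-216a, and VAT 1 the highest with TMM scaling. Per read of miR-216a, VAT 5 had less miR-216b than VAT 1 or VAT 3. The VAT 4 ratio rests on 3 reads of miR-216b.

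**Figure D2:**
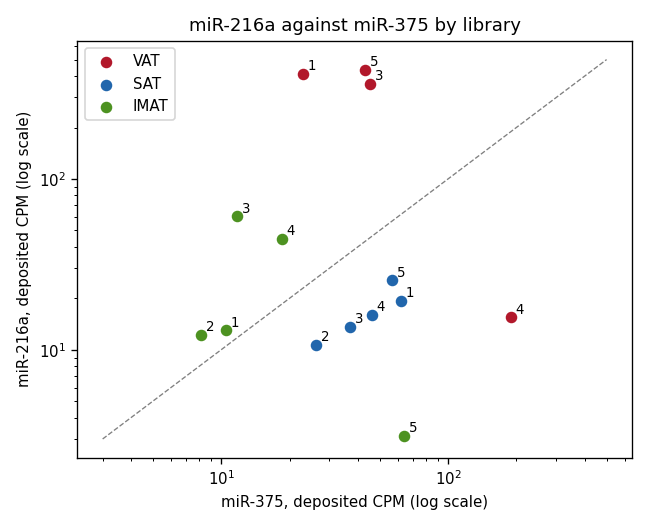
Deposited CPM of miR-216a (vertical, log scale) against miR-375 (horizontal, log scale), 1 point per library with its replicate number, coloured by depot; the dashed line marks equal levels. VAT 1, VAT 3 and VAT 5 lie far above the line, all SAT libraries below it, and VAT 4 and IMAT 5 lie apart from their depots at the lower right.

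Visceral and subcutaneous fat were compared to ask how adipocytes of the body cavity differ from those under the skin. Both miR-216 miRNAs were higher in VAT than in SAT. On the TMM-scaled CPM scale miR-216a had a level of 216.2 ± 158 (SD, n = 4) in VAT and 12.1 ± 3.29 (n = 5) in SAT, 17.8-fold or 4.16 ± 0.91 on the log2 scale (± SE; quasi-likelihood test of edgeR, adjusted p = 0.0077 by Benjamini-Hochberg). miR-216b had a level of 16.4 ± 15.1 in VAT and 1.03 ± 0.389 in SAT, a log2 difference of 3.96 ± 1.12 (adjusted p = 0.037 in edgeR; 0.032 for the 3p entry). For miR-375 the levels were 49.1 ± 49.7 and 32.1 ± 6.56, a log2 difference of 0.62 ± 0.61 (adjusted p = 0.66 in edgeR). Of the 3 miRNAs, 2 were thus called higher and 0 lower, where 17 of all 327 entries tested (5.2%) were called higher and 24 (7.34%) lower. The 2 called, miR-216a and miR-216b, share a gene cluster in vertebrates and correlated at r = 0.84 over the libraries. Their calls are therefore not independent of each other. The median log2 fold change was 3.96 over the 3 miRNAs and 0.05 over all entries, which keep every copy. Counted in the same way, 3 of the 6 entries were called higher, with a median of 2.29. For miR-216a and miR-216b VAT 4 lay among or below the SAT libraries and the depots overlapped, which was not so for 16.2% of all entries.

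VAT 4 was picked for its low miR-216a, so leaving it out favours larger differences in miR-216. Without VAT 4 the log2 difference was 4.83 ± 0.77 for miR-216a (adjusted p = 0.001 in edgeR). For miR-216b it was 4.68 ± 0.92 (edgeR adjusted p = 0.0041), and 7.55% of all entries were called higher. The remaining 3 VAT libraries then lay above every SAT library for both, and 27.5% of all entries showed no overlap. The difference in miR-375 turned to -0.06 ± 0.48 without VAT 4 (edgeR adjusted p = 0.97). The call for miR-216a was kept when any 1 of the 14 libraries was left out (4.08 to 4.83; edgeR adjusted p = 0.001 to 0.027). That of miR-216b was lost without VAT 1, VAT 3 or any 1 of the SAT libraries (7 of 14 fits; 3.55 to 4.21, edgeR adjusted p = 0.057 to 0.078). A two-sided exact permutation test over the 9 libraries, each miRNA on its own on log2(TMM-scaled CPM + 1), gave p = 0.032 for miR-216a, 0.056 for miR-216b and 0.88 for miR-375. The smallest p it allows is 0.0079, and none passed after adjustment over the 9 such tests (adjusted p = 0.25, 0.25 and 0.98). Whether the difference in miR-216a was larger than that in miR-375 was not tested.

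**Figure D3:**
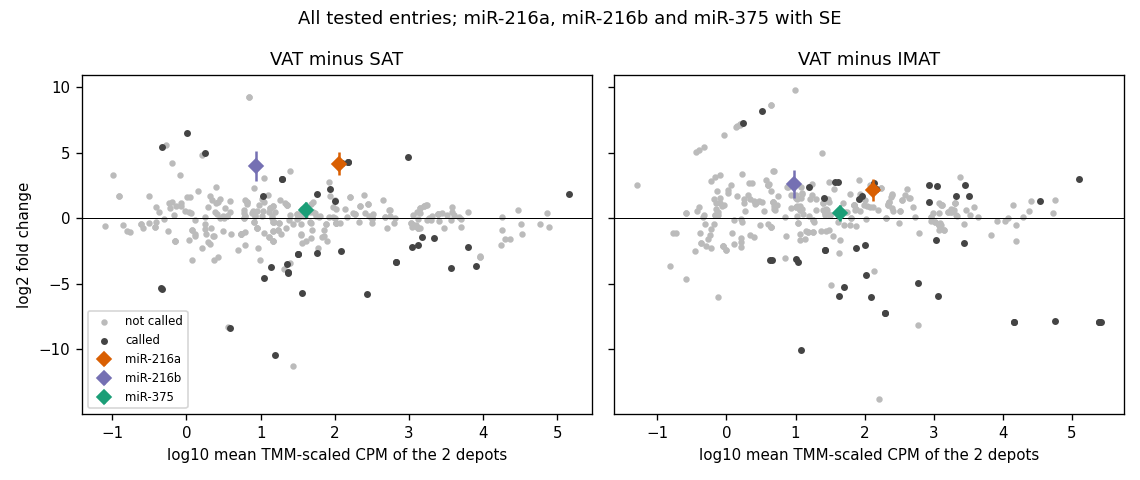
Log2 fold change of all 327 tested entries against the log10 mean TMM-scaled CPM of the 2 depots, for VAT minus SAT and VAT minus IMAT; dark points are called at an adjusted p under 0.05, and diamonds with SE bars are the 3 miRNAs. miR-216a and miR-216b lie at 4.16 and 3.96 against SAT and at 2.15 and 2.62 against IMAT, and miR-375 lies near 0 in both.

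Visceral and intramuscular fat were compared to ask how fat of the body cavity differs from fat between muscle fibres. Here 0 of the 3 miRNAs passed the test, where 13.5% of all entries were called in either direction (44 of 327; 111 at an unadjusted p under 0.05). On the TMM-scaled CPM scale the IMAT level of miR-216a was 48.9 ± 41.7 (SD, n = 5), and VAT minus IMAT gave a log2 difference of 2.15 ± 0.84 (adjusted p = 0.1 in edgeR). The IMAT level of miR-216b was 2.63 ± 2.96, with a log2 difference of 2.62 ± 1.09 (adjusted p = 0.11). That of miR-375 was 37.6 ± 30.8, with 0.38 ± 0.62 (edgeR adjusted p = 0.68). All 3 overlapped between the depots, while 15% of all entries did not. The unadjusted edgeR p was 0.024 for miR-216a and 0.03 for miR-216b, and DESeq2 (Wald test) called miR-216b alone (2.64, adjusted p = 0.049). Over all 327 entries DESeq2 called 86, of which 50 were higher.

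This comparison rested on VAT 4 and on the scaling. As VAT 4 was picked for its low miR-216a, p-values without it are no separate support. Without VAT 4, miR-216a differed by 2.23 ± 0.72 and miR-216b by 2.76 ± 0.89 in favour of VAT (edgeR adjusted p = 0.043 each), so that 2 of 3 were called higher, where 8.81% of all entries were, and miR-375 turned to -0.70 ± 0.49 (edgeR adjusted p = 0.33). Without IMAT 5, 0 of the 3 passed (1.74, 2.34 and 0.74 for miR-216a, miR-216b and miR-375; edgeR adjusted p = 0.15, 0.17 and 0.26). With library totals as the only scaling, which leaves the muscle reads of IMAT in the divisor, the log2 fold changes were 3.53, 4.25 and 1.74 for miR-216a, miR-216b and miR-375 (edgeR adjusted p = 0.0071, 0.0085 and 0.06). Library totals called 162 of all 327 entries, of which 144 were higher. The median of all entries was 0.60 with TMM scaling and 1.99 with library totals. Relative to that median the difference in miR-216a was of the same size under both scalings, and miR-375 lay below the median under both.

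Subcutaneous and intramuscular fat were compared to ask how fat under the skin differs from fat within muscle. Again 0 of the 3 miRNAs passed, where 6.73% of all entries were called (22 of 327; 84 at an unadjusted p under 0.05). SAT minus IMAT gave -2.01 ± 0.82 for miR-216a (edgeR adjusted p = 0.13), -1.34 ± 1.04 for miR-216b (edgeR adjusted p = 0.46) and -0.24 ± 0.58 for miR-375 (edgeR adjusted p = 0.82). The value of miR-216a passed without VAT 4 (-2.60 ± 0.67, edgeR adjusted p = 0.025, with 9.43% of all entries called lower) and without IMAT 5 (-2.78 ± 0.79, edgeR adjusted p = 0.037). It also passed in DESeq2 (-2.49, adjusted p = 0.022) and in the fit of SAT and IMAT alone (-2.49, edgeR adjusted p = 0.048). Over all entries, 31 were called lower in DESeq2, 24 in that fit and 21 without IMAT 5, against 12 in the reported fit. With library totals the value of miR-216a was -0.64 (edgeR adjusted p = 0.52). By TMM-scaled mean the order for miR-216a was thus VAT, IMAT, SAT, and the call between neighbours in it depended on single libraries or the scaling.

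**Figure D4:**
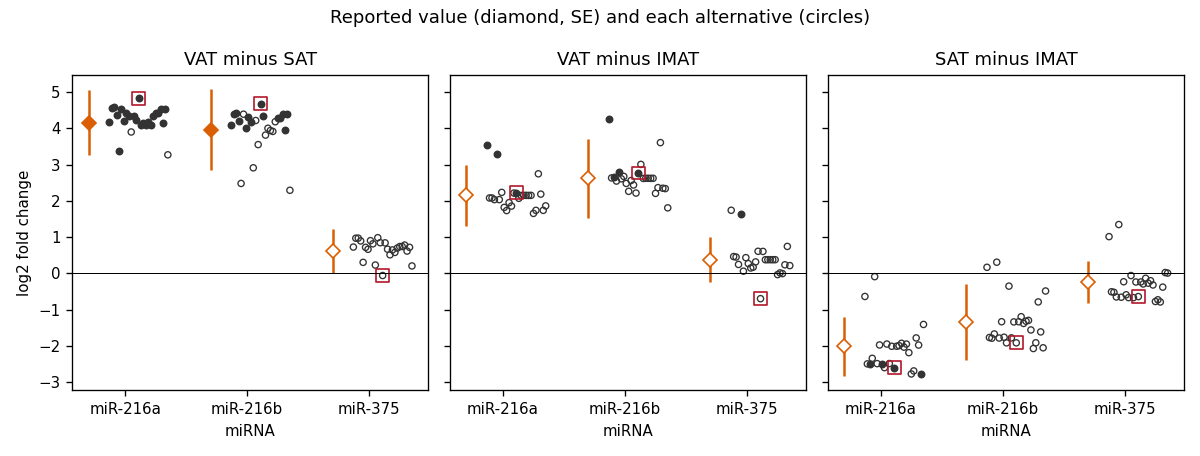
Log2 fold change (vertical) of each miRNA in the 3 comparisons: the diamond with SE bar is the reported value and circles are its 25 alternatives, filled where the adjusted p is under 0.05, with the fit without VAT 4 in a red square. miR-216a and miR-216b stay above 0 in both comparisons of VAT, with filled circles mostly against SAT, and miR-375 crosses 0 in all 3 panels.

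Other miRNAs linked to the pancreas were taken from a wider list: miR-148 of acinar cells, miR-7 and miR-184 of islets, and miR-141, miR-200 and miR-429 of epithelia, islets included. It matched 9 entries, 6 distinct miRNAs (miR-7a, miR-148a, miR-148b, miR-200a, miR-200b and miR-429), with no entry for miR-184 or miR-141. Of these 6, 0 were called in any of the 3 comparisons (edgeR; adjusted p = 0.51 to 1.0 between VAT and SAT, 0.075 to 0.54 between VAT and IMAT, and 0.12 to 0.89 between SAT and IMAT). Over all entries 12.5%, 13.5% and 6.73% were called in the same order, so 0 of 6 is near the share of all entries. Their median log2 fold change was -0.06 for VAT minus SAT and 0.98 for VAT minus IMAT, against 0.05 and 0.60 for all entries. Without VAT 4, 0 of the 6 were called in either comparison of VAT, where 14.8% of all entries were called against SAT and 21.4% against IMAT. The lowest adjusted p was that of miR-200b between VAT and IMAT (log2 difference 1.49 ± 0.53, edgeR adjusted p = 0.075).

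miR-148a, enriched in acinar cells but also made in many other tissues, had a TMM-scaled CPM of 1894 ± 1235 in VAT, 2061 ± 801 in SAT and 1360 ± 379 in IMAT. Its deposited CPM was 3823, 3310, 794 and 2759 in VAT 1, 3, 4 and 5, so VAT 4 was the lowest VAT library for it as for miR-216. miR-148b, its close relative, was at 262, 177, 30.9 and 74.2 CPM in the same order. miR-7a, abundant in islet cells and neurons, was at 462, 689, 211 and 2577 CPM in VAT, with VAT 5 high and VAT 4 low. In SAT miR-7a lay between 295 and 408 CPM. It is listed at 0 in IMAT 4, where the lowest share of the other IMAT libraries would give 44 reads, so that value lies beyond counting error.

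Gut and liver miRNAs were also higher in VAT. The part of these and of the other markers below in the result was not tested. The gut and liver list (miR-122, miR-192 and miR-194; no entry for miR-215) took 0.0493 to 0.0697% of the counts in VAT, 0.00785 to 0.0165% in SAT and 0.00244 to 0.00800% in IMAT. Of its 3 tested entries (of 5 listed) 2 were called higher in VAT than in SAT and 3 higher than in IMAT, where 5.2% and 5.81% of all entries were; the others, miR-194b and miR-194c, were above 0 in 1 library. These markers did not share 1 order of VAT libraries. The liver miRNA miR-122 was at 254 to 322 CPM in VAT 1, VAT 3 and VAT 5 and at 535 CPM in VAT 4, the highest of the 4. From the same list, miR-192a was instead lowest in VAT 4, at 149.6 CPM (others 164.5 to 278). miR-194a was lowest there too, at 12.6 CPM (others 31.2 to 59.3). Among leukocyte miRNAs, miR-150 was highest in VAT 4 (973 CPM, others 167 to 399), while miR-142b is listed at 0 there and was at 92.8 to 666 CPM in the others. The 95% Clopper-Pearson interval of that 0 ends at 0.553 CPM, so the value lies beyond counting error. Why miR-142b is listed at 0 was not tested. Between VAT and SAT, 0 of 3 leukocyte and 0 of 6 distinct neuronal miRNAs were called, where 12.5% of all entries were. Between VAT and IMAT it was 0 and 2, where 13.5% of all entries were called. The neuronal miR-9a-3p was at 206 CPM in VAT 4 and at 51.1 to 104 in the others. Other neuronal entries went both ways. Leaving out VAT 4 lowered the log2 difference of VAT minus SAT for miR-9a-3p (1.26 to 1.09) and miR-9b-3p (1.09 to 0.68). It raised that of miR-9a-5p (3.63 to 4.02) and of the miR-128 entries (for miR-128-3p, -0.78 to -0.51). In bulk RNA, fewer cells of a type and less of the miRNA per cell cannot be told apart.

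Outside the miR-216 and miR-375 entries, those whose pattern was most like that of miR-216a over the 14 libraries were NovelmiRNA-268, miR-8159-5p and NovelmiRNA-260, with Pearson r of 0.95, 0.92 and 0.83 on log2(TMM-scaled CPM + 1). They were picked for this likeness, depots differ in level, and the points share library and scaling, so r is a description only. NovelmiRNA-268, a predicted miRNA with no further name in the table, had 0.940 to 1.65 reads per read of miR-216a in 13 of 14 libraries, from IMAT 4 with 34 reads of miR-216a to VAT 5 with 4830. In VAT 4 it had 5.46. miR-8159-5p had 4.14 to 9.90 reads per read of miR-216a in the same 13 libraries and 53.6 in VAT 4. VAT 4 held 562 reads of NovelmiRNA-268 (84.3 CPM) and 5521 of miR-8159-5p (828 CPM), both above every SAT library (at most 30.1 and 174 CPM), whereas its miR-216a lay inside the SAT range. Without VAT 4 the r of NovelmiRNA-268 and of miR-8159-5p with miR-216a was 0.99 each.

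The mean TMM-scaled CPM of NovelmiRNA-268 was 289.5 in VAT, 14.8 in SAT and 60.3 in IMAT, and that of miR-8159-5p was 1853 in VAT, 74.2 in SAT and 339.8 in IMAT. Entries with the same reads were listed once, and a further predicted entry, NovelmiRNA-62, had the same means as NovelmiRNA-268 in VAT and SAT. The entries were picked for following miR-216a over the same libraries, so their depot differences are part of the choice. They were among the entries tested, and miR-8159-5p gave a log2 difference of 4.64 ± 0.75 for VAT minus SAT (edgeR adjusted p = 0.0016). Such a value is a description and no separate support. NovelmiRNA-260 followed miR-216a less closely, with 0.111 to 0.625 reads per read of miR-216a outside VAT 4 and IMAT 5, and 2.22 and 1.43 in these.

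**Figure D5:**
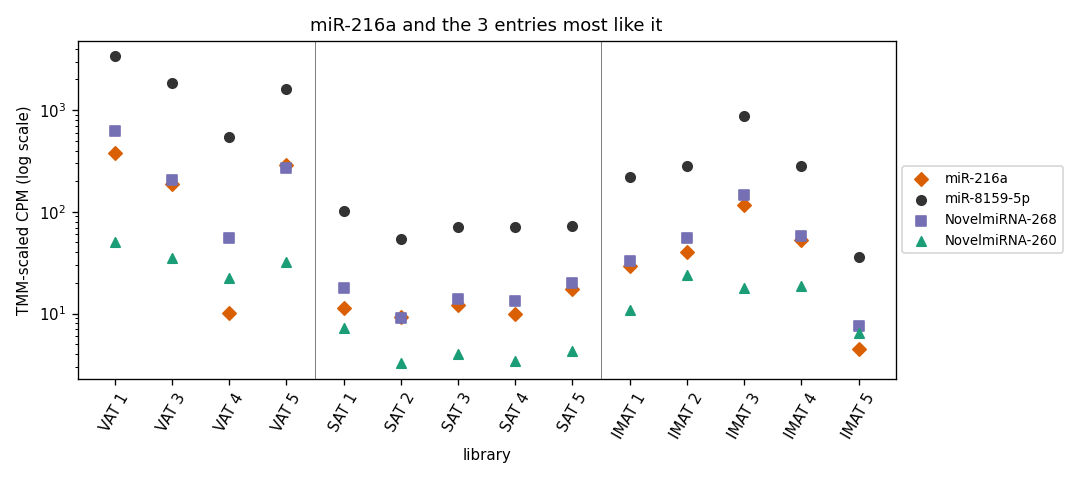
TMM-scaled CPM (log scale) of miR-216a, miR-8159-5p, NovelmiRNA-268 and NovelmiRNA-260 in each of the 14 libraries, with lines between depots. miR-216a lies beside NovelmiRNA-268 except in VAT 4, where they are at 10.1 and 55.2.

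Outside the miR-216 and miR-375 entries, those most like miR-216b were NovelmiRNA-632, NovelmiRNA-176 and NovelmiRNA-268 (r = 0.81, 0.81 and 0.80). Its r with miR-216a, 0.84, was higher. Those most like miR-375 were miR-30c-5p, miR-25-3p and miR-145-3p (r = 0.89, 0.89 and 0.88). All 3 were highest in VAT 4 on the deposited CPM scale: miR-30c-5p was at 9591 CPM there and at 877 to 959 in the other VAT libraries, miR-25-3p at 7266 and 1034 to 1128, and miR-145-3p at 561 and 149 to 298. In IMAT all 3 were highest in IMAT 5. The likeness to miR-375 rested on these libraries: without VAT 4 the r was 0.78, 0.78 and 0.82, and without VAT 4 and IMAT 5 it was 0.38, 0.59 and 0.48. For NovelmiRNA-268 and miR-8159-5p the r with miR-216a without these libraries was 0.99 each.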

How the data were processed

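Reads of small RNAs were counted per miRNA entry in 14 libraries, grouped by the depot in their titles. The deposited table gives 1 column of raw counts per library and 1 column headed TPM. The latter deposited values are CPM: they match each count as a share of its library's summed counts within 0.005, once the first entry is left out of the sum. The submitters' processing notes name Trimmomatic 0.30 and edgeR 3.4.6; how reads were aligned and miRNAs called is not given in the sources used here. No sequences were used. A further 2 columns matched no library of the labels and stayed out.

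The quasi-likelihood test of edgeR 4.0.16 was run in R 4.3.3 on the counts with TMM scaling, for the 327 of 899 entries above 0 in 4 or more libraries. All 14 libraries entered 1 fit without a block. Tests were two-sided, adjusted by Benjamini-Hochberg over all entries, called under 0.05, and tested on simulated data. The SE given with edgeR values was derived from the test: the absolute log2 fold change over the square root of its F statistic. A pair of entries was read as 1 where their counts differed by at most 2 reads or 10% in every library that held both (at least 4, with 20 reads in 1). Alternatives changed the scaling, filter, test (DESeq2 1.42.0, limma 3.58.1), libraries and block. Named were all entries of the 3 miRNAs, a wider pancreas list and the 3 entries most like each miRNA. The members and lists were chosen with earlier results of these data known, and the permutation tests and the wider list without VAT 4 were added after seeing the data.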

Additional observations from a re-analysis of the deposited data

Results flagged for a closer look

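Of 27 depot groups (9 miRNAs in 3 depots) checked for a library far from the others, 2 had one, both for miR-375. The cutoff is passed in about 1 in 20 groups of normally distributed values. These values were not logged and the groups share libraries, so 2 of 27 is not read as an excess. In VAT, the TMM-scaled CPM of miR-375 was 123.6 in VAT 4, where the nearest VAT library had 28.4. In IMAT it was 92.5 in IMAT 5, where the nearest had 27.0. The same libraries had the lowest miR-216a of their depots, 10.1 in VAT 4 and 4.53 in IMAT 5.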

How the results depend on the processing

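The higher level of miR-216a and of miR-216b in VAT than in SAT kept its direction in all 25 alternatives of each, and passed the threshold in 23 and 14 of them (log2 fold change 3.27 to 4.83 and 2.29 to 4.68; adjusted p = 3.4e-06 to 0.25 and 0.00029 to 0.25). Between VAT and SAT, 2 of the 3 miRNAs were called, against 1 in limma on log2(deposited CPM + 1) and 1 without a filter, and 1 to 2 with single libraries left out. Between VAT and IMAT it was 0, against 2 with library totals, 1 in DESeq2, 3 in limma and 0 to 2 with single libraries left out. Library totals, DESeq2 and limma called 162, 86 and 176 of the 327 entries there. Their counts are therefore not read as particular to the 3 miRNAs. Between SAT and IMAT it was 0, against 1 in DESeq2, 1 in the fit of these depots alone and 0 to 1 with single libraries left out.

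Over all entries, 41 were called between VAT and SAT (17 higher), 63 in DESeq2 (39 higher), 17 without a filter and 26 to 48 with single libraries left out; with median-ratio scaling 25 of 39 were higher, at a median log2 of 0.44. Between VAT and IMAT 44 were called (19 higher), 162 with library totals (144 higher), 86 in DESeq2, 176 in limma, 26 without a filter, 27 in the fit of these depots alone and 34 to 68 with single libraries left out. Between SAT and IMAT 22 were called (10 higher), 131 with library totals (124 higher), 47 in DESeq2, 174 in limma, 11 without a filter, 38 in the fit of these depots alone and 15 to 47 with single libraries left out. Library totals and limma on deposited CPM keep the muscle reads of IMAT in the divisor. The cause of the shifts was not tested for any setting.

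Pairing by replicate number was not seen: deviations of same-numbered libraries correlated at -0.24 to 0.19, above 0.1 in 3 of 13 pairs. Only 1 of 14 libraries was closest to its own number. These values cannot tell whether same-numbered libraries came from the same fish, because any other difference between libraries of a depot also enters the deviations. With the replicate block, 27 entries were called between VAT and SAT, 28 between VAT and IMAT and 16 between SAT and IMAT, and 0 of the 3 miRNAs in each; for VAT minus SAT miR-216a gave 3.90 and miR-216b 2.91 (edgeR adjusted p = 0.068 and 0.25).

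Sign changes were confined to values that missed the threshold. With single libraries left out, miR-375 gave -0.058 (without VAT 4) to 0.98 for VAT minus SAT, -0.70 (without VAT 4) to 0.74 for VAT minus IMAT, also below 0 without IMAT 1 or IMAT 3, and -0.79 to 0.024 (without IMAT 5) for SAT minus IMAT. For SAT minus IMAT it also gave 1.013 with library totals, 1.35 in limma and 0.0091 as the mean difference of the permutation test. miR-216b gave 0.17 with library totals and 0.31 in limma for SAT minus IMAT. At 0 to 10 reads per library, the levels of miR-216b in SAT and IMAT carry a wide counting error.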
